A study of Mus musculus with 15 samples.

Results

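Lrrc3b, Heg1, Ildr2 and Scgn are 4 genes, none of them an odorant receptor, of the 57010 in a table of messenger RNA from mouse olfactory epithelium. They were chosen by their rise in the odour groups over Control, so their levels against Control are given below as a description and are not tested. What is tested is how the 4 genes differ among the odour groups themselves, without Control. The levels in the odour groups entered the choice, so these tests are not wholly independent of it. All 4 passed the filter on low counts that left 19229 genes.

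The RNA came from an immunoprecipitation of ribosomes that carry phosphorylated ribosomal protein S6, a protein that neurons phosphorylate when they are active, so that transcripts of active cells are enriched. All animals were wild-type C57BL/6J males of 8 weeks, kept singly without odour for 4 h and then exposed for 90 min. A+D mice received acetophenone and decanal on 1 filter paper, and A&D mice received the same odorants on 2 papers about 1 mm apart. For O+C mice the odorants were octanal and cis-3-hexenol on 1 paper, and for O&C mice the same odorants on 2 papers. The volume was 10 µL of each odorant, and Control mice received empty papers. There were 3 mice in each of these 5 groups, with 1 library taken as 1 mouse, and all 15 libraries carry the same batch label. No group received a single odorant. The libraries held 22704193 to 25287077 counts. Omp, the marker of mature olfactory sensory neurons, stood at 4205 to 10092 CPM (counts relative to the TMM-scaled library size) over the 15 libraries, so the labelled tissue and its neurons are present. The lowest mean correlation with the other libraries, 0.958, was that of A+D 2, against 0.970 to 0.978 for the remaining 14.

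The 4 genes encode proteins of unlike kinds. Lrrc3b is a transmembrane protein with leucine-rich repeats, best known as a gene silenced in human tumours. Heg1 is a mucin-like transmembrane receptor that binds Krit1 and is needed for the integrity of the heart and blood vessels in mouse and zebrafish. Ildr2 belongs to the angulins, immunoglobulin-domain membrane proteins that recruit tricellulin to the corners where epithelial cells meet. Scgn, secretagogin, is an EF-hand calcium sensor of neuroendocrine cells and of some neurons, interneurons of the olfactory bulb among them, and it binds proteins of vesicle release. In mature olfactory sensory neurons odorants open a cyclic nucleotide-gated channel, calcium enters, and genes of axon sorting such as Kirrel2 and Sema7a are set by that activity.

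All 4 genes were matched to a RefSeq promoter window (GRCm38.p6, 250 bases before to 50 after the start of the gene). Those of Lrrc3b and Heg1 are shown because these genes had the most alike profiles of the 4, and that of Scgn because it held the single motif match found. Lrrc3b lies at chr14:15438938-15439237 on the minus strand, Heg1 at chr16:33684216-33684515 on the plus strand and Scgn at chr13:23991165-23991464 on the minus strand. Each is written 5′ to 3′ on the strand of its gene, with the match to the AP-1 motif TGANTCA in capitals.
Lrrc3b: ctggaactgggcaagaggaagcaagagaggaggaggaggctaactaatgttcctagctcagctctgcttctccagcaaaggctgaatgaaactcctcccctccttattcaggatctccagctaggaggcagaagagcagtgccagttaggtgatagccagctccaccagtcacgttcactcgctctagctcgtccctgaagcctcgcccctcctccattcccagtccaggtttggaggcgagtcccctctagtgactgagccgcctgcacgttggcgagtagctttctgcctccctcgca
Heg1: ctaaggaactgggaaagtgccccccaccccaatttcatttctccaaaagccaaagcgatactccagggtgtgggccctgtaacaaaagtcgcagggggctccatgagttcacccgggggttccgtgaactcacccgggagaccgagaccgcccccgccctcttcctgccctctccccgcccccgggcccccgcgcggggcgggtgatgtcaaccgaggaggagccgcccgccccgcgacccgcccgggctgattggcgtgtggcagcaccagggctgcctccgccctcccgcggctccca
Scgn: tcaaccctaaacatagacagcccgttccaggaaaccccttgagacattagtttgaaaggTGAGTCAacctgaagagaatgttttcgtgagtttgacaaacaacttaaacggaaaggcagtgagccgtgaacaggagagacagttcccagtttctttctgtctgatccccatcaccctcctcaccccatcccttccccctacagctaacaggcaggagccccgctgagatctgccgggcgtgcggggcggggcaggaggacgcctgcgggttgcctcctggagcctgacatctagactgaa
The motifs were searched on both strands, and the letters of the short CRE core lie within those of the full CRE. The AP-1 match in the Scgn window, TGAGTCA, began 191 bases before the start, and AP-1 letters were in 7.81% of all 32851 windows of this length. The windows of Lrrc3b, Heg1 and Ildr2 held none of the motifs searched, and that of Scgn held no other. The others were the CRE TGACGTCA (1.79% of all windows), its core TGACG (20.8%), the EGR motif GTGGGCG (7.97%), the NBRE AAAGGTCA (1.51%), the homeodomain core TAATTA (5.29%) and the Olf/EBF motif (0.904%). In base composition the windows of Heg1 and Ildr2 stood at 69.0% G and C with 25 and 32 CpG dinucleotides, that of Lrrc3b at 57% with 9, and that of Scgn at 54.7% with 11. The medians of all windows were 52.7% and 7 CpG.

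Lrrc3b (ENSMUSG00000045201, chromosome 14) stood at 238, 190 and 281 CPM in A+D 1 to 3 and at 397, 473 and 327 CPM in A&D 1 to 3. It stood at 711, 492 and 380 CPM in O+C, at 566, 665 and 789 CPM in O&C, and at 124, 147 and 98.7 CPM in Control. Every odour library was above every Control library, and the lowest, A+D 2, came closest. The group means were 236 ± 45.8 CPM in A+D, 399 ± 72.8 in A&D, 528 ± 168 with O+C, 673 ± 112 with O&C and 123 ± 24.1 in Control (SD, n = 3 each). The A+D libraries were all below the A&D libraries, while A&D overlapped O+C, and O+C overlapped O&C. The fitted fold over Control was 1.92 in A+D, 3.24 in A&D, 4.28 with O+C and 5.46 with O&C.

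Heg1 (ENSMUSG00000075254, chromosome 16) followed the same group order, with a lower SD relative to the mean than Lrrc3b except in O&C (19.5% against 16.6%). It had 33.9, 37.3 and 40.6 CPM in A+D, 59.2, 51.8 and 44.9 CPM in A&D, 72.7, 63.6 and 68.6 CPM in O+C, 63.8, 76.2 and 94.1 CPM in O&C, and 20.8, 21.1 and 17.6 CPM in Control. Control, A+D, A&D and O+C did not overlap one another, in that order from low to high, and O+C overlapped the lower part of the O&C range. The share of all genes with this order was not counted. The means were 37.3 ± 3.36 CPM in A+D, 52.0 ± 7.15 in A&D, 68.3 ± 4.54 with O+C, 78.1 ± 15.2 with O&C and 19.8 ± 1.95 in Control (SD, n = 3 each). These are fitted folds of 1.88, 2.62, 3.45 and 3.94 over Control.

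Ildr2 (ENSMUSG00000040612, chromosome 1) had 28.0 to 138 counts a library, so its values carry the most counting error of the 4 genes. It had 2.60, 5.67 and 3.18 CPM in A+D, 3.12, 4.48 and 4.11 CPM in A&D, 4.61, 2.77 and 2.26 CPM in O+C, 4.08, 5.33 and 6.14 CPM in O&C, and 1.29, 1.12 and 1.40 CPM in Control. All odour libraries were above all Control libraries, but the 4 odour groups overlapped from each one to the next in the order of their means. The means were 3.82 ± 1.63 CPM in A+D, 3.90 ± 0.700 in A&D, 3.21 ± 1.24 with O+C, 5.18 ± 1.04 with O&C and 1.27 ± 0.145 in Control (SD, n = 3 each). The A+D value leans on A+D 2: the log2 fold change over Control was 1.58 with it and 1.18 without it.

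Scgn (ENSMUSG00000021337, chromosome 13) had the flattest odour profile. It had 31.7, 36.6 and 32.2 CPM in A+D, 50.1, 35.3 and 33.6 CPM in A&D, 44.3, 38.6 and 31.9 CPM in O+C, 40.2, 44.3 and 38.8 CPM in O&C, and 18.7, 20.1 and 19.7 CPM in Control. Neighbouring odour groups in the order of their means overlapped, while the A+D libraries were all below the O&C libraries, and the lowest odour library, A+D 1, was above the highest Control library. The share of all genes with A+D wholly below O&C was not counted. The means were 33.5 ± 2.7 CPM in A+D, 39.7 ± 9.05 in A&D, 38.3 ± 6.21 with O+C, 41.1 ± 2.84 with O&C and 19.5 ± 0.701 in Control (SD, n = 3 each). The fitted folds over Control were 1.72, 2.03, 1.96 and 2.11 in that order of odour groups.

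**Figure D1:**
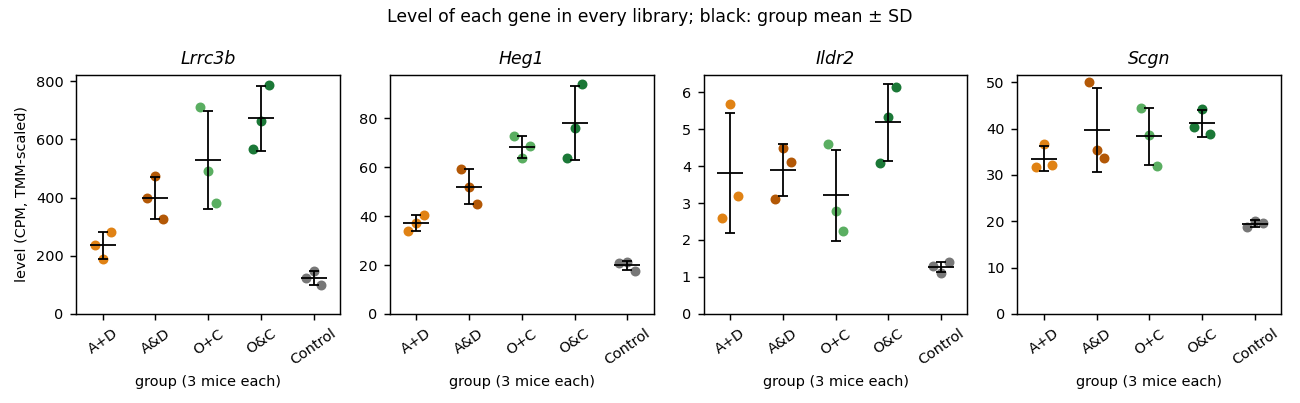
Level of each gene in CPM after TMM scaling (y axis, from 0, a scale of its own for each gene) in the 3 libraries of each group (points), with the group mean and SD in black. Lrrc3b and Heg1 climb from A+D to O&C in their means, the odour groups of Ildr2 overlap, those of Scgn overlap except A+D and O&C, and every odour point lies above every Control point.

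The separation of all 12 odour libraries from all 3 Control libraries, which the choice of the genes favours, was met by 590 of the 19229 genes, or 3.07%. For single groups the share of genes with all 3 libraries above Control was 8.13% in A+D, 11.6% in A&D, 17.8% with O+C and 20.3% with O&C. On the log2 scale Lrrc3b was 0.94 ± 0.22 over Control in A+D, 1.70 ± 0.23 in A&D, 2.10 ± 0.23 with O+C and 2.45 ± 0.23 with O&C (SE from edgeR). Heg1 was 0.91 ± 0.14, 1.39 ± 0.14, 1.79 ± 0.14 and 1.98 ± 0.14 in the same order. Both thus had a larger value in each later group. Ildr2 was 1.58 ± 0.33, 1.61 ± 0.32, 1.33 ± 0.33 and 2.02 ± 0.32, and Scgn 0.78 ± 0.15, 1.03 ± 0.15, 0.97 ± 0.15 and 1.08 ± 0.15. The 4 comparisons share the Control libraries, so they are not independent of one another. Counted from the highest of the 19229 genes, Lrrc3b ranked 454 in A+D, 137 in A&D, 91 with O+C and 107 with O&C. Scgn ranked 690, 334, 406 and 480.

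**Figure D2:**
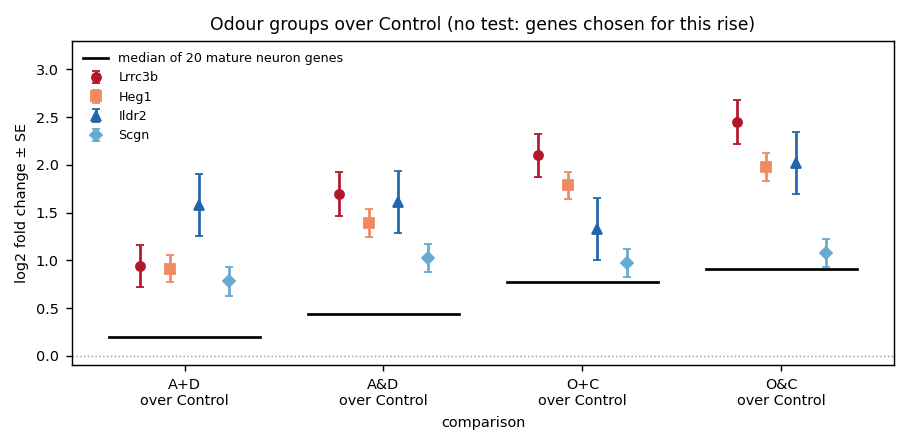
Log2 fold change over Control (y axis) with its SE for each gene and odour group (x axis), given as a description because the genes were chosen for it. Black lines mark the median of 20 mature neuron genes, at 0.20, 0.44, 0.78 and 0.91 from left to right, and each gene lies above the line of its group.

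Between the odorant pairs, the mean of O+C and O&C over the mean of A+D and A&D, Lrrc3b and Heg1 rose and Ildr2 and Scgn did not pass the test. Lrrc3b was higher with octanal and cis-3-hexenol by 0.96 ± 0.16 on the log2 scale, a fold of 1.94 (95% interval 0.62 to 1.29, edgeR adjusted p = 0.00114). Heg1 was higher by 0.73 ± 0.10, a fold of 1.66 (0.52 to 0.94, edgeR adjusted p = 0.00011). All 6 Heg1 libraries of the octanal pair were above all 6 of the acetophenone pair, which held for 4.66% of genes, while the Lrrc3b libraries of the pairs overlapped. The difference was 0.08 ± 0.21 for Ildr2 (−0.37 to 0.53, adjusted p = 0.837) and 0.12 ± 0.10 for Scgn (−0.10 to 0.34, adjusted p = 0.456). The test called 15.8% of all genes in either direction, 9.03% as higher and 6.74% as lower. A difference between the pairs is one of odorants as given, and their concentrations in the air were not given in the sources used here.

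Between the delivery methods no call was made for any of the 4 genes. With acetophenone and decanal, Lrrc3b stood at −0.76 ± 0.22 in A+D over A&D (95% interval −1.23 to −0.29, unadjusted p = 0.00364, edgeR adjusted p = 0.930). Heg1 stood at −0.48 ± 0.14 (−0.77 to −0.19, unadjusted p = 0.00300, edgeR adjusted p = 0.887). For both genes the 3 A+D libraries lay below the 3 A&D libraries, which 3.74% of genes did. Of all genes 0.120%, or 23, were called in this comparison, all of them lower in A+D. Scgn stood at −0.24 (−0.55 to 0.07) and Ildr2 at −0.03 (−0.67 to 0.60), and they turned to 0.036 and 0.25 with libraries scaled by 20 genes of mature neurons. Lrrc3b was called in this comparison when no filter on low counts was applied (−0.77, edgeR adjusted p = 4.30e-07); the cause was not tested.

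With octanal and cis-3-hexenol, O+C over O&C, the values were −0.35 for Lrrc3b (−0.82 to 0.12), −0.19 for Heg1 (−0.48 to 0.10), −0.69 for Ildr2 (−1.33 to −0.06) and −0.10 for Scgn (−0.41 to 0.21), which turned to 0.036 with that scaling. Ildr2 alone had an unadjusted edgeR p under 0.05 here, at 0.0343, with an adjusted p of 1.00. In this comparison edgeR called 0 of the 19229 genes (0%), 766 had an unadjusted p under 0.05, and DESeq2 called 9. The difference between the delivery effects of the pairs, O+C over O&C less A+D over A&D, was 0.41 (−0.25 to 1.07) for Lrrc3b, 0.29 (−0.12 to 0.70) for Heg1, −0.66 (−1.56 to 0.24) for Ildr2 and 0.14 (−0.30 to 0.58) for Scgn. None of the 4 passed (edgeR adjusted p = 1.00 for each), and 0.0104% of all genes did. The 4 genes and 4 comparisons among odour groups make 16 tests, of which 2 passed after adjustment over all genes.

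**Figure D3:**
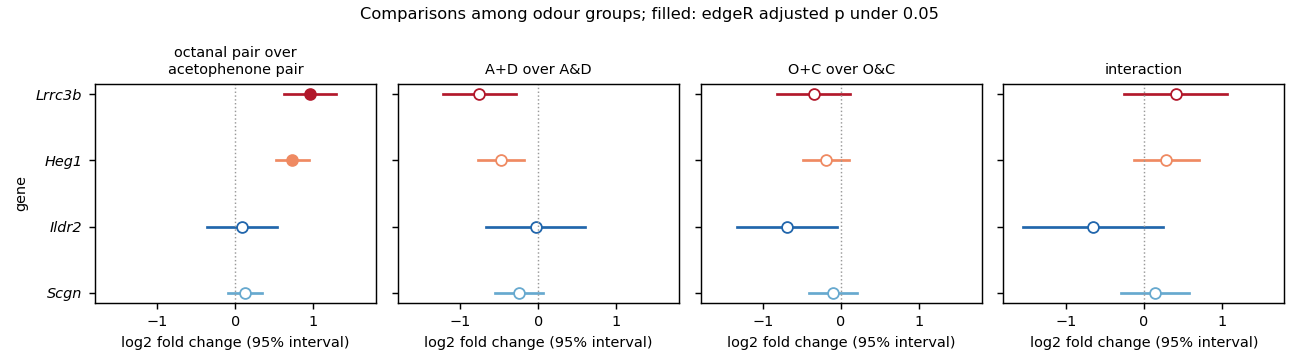
Log2 fold change (x axis) with its 95% interval for each gene (y axis) in the 4 comparisons among odour groups. Filled points have an edgeR adjusted p under 0.05: Lrrc3b at 0.96 and Heg1 at 0.73 in the comparison of odorant pairs.

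Within groups, the library O+C 1 had the highest level of all 4 genes among the O+C libraries. O&C 3 was highest of its group for Lrrc3b, Heg1 and Ildr2, but lowest for Scgn. These libraries also had the highest summed level of the 20 mature neuron genes in their groups, at 22102 CPM in O+C 1 and 25021 CPM in O&C 3. The match did not hold in all groups: A&D 1 had the highest sum of A&D, 18870 CPM, and the lowest Ildr2 level, and Control 2 had the highest sum of Control, 13265 CPM, and again the lowest Ildr2 level. In A+D the highest sum, 15996 CPM, and the highest Lrrc3b and Heg1 levels were those of A+D 3. A+D 2 had the lowest sum, 12835 CPM, but the highest Ildr2 and Scgn levels of that group. The mature neuron genes moved with the odour groups as a whole. Their summed level was 14633 ± 1625 CPM in A+D, 17397 ± 1411 in A&D, 20206 ± 1735 with O+C, 22631 ± 3357 with O&C and 12467 ± 692 in Control (SD, n = 3 each), and of the 20 genes 3 rose in A&D, 17 with O+C and 18 with O&C (edgeR). Of all genes 0.296% were called as higher in A+D, 1.00% in A&D, 5.74% with O+C and 9.33% with O&C. With libraries scaled by these same genes their median turns, by construction, to −0.030 in A+D and −0.037 in A&D. In A+D edgeR called 0 of the 20, 8 had an unadjusted p under 0.05, and DESeq2 called 2. Between the pairs 16 of the 20 rose, with a median log2 fold change of 0.47. In such immunoprecipitates more cells of a type, more RNA per cell and more ribosomes captured from active cells cannot be told apart.

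Set against these neuron genes, all 4 genes remained above Control on average. Per 1000 counts of the mature neuron genes, Lrrc3b averaged 16 counts in A+D, 23 in A&D, 25.8 with O+C, 29.8 with O&C and 9.84 in Control. Heg1 averaged 2.56, 2.98, 3.39, 3.44 and, in Control, 1.59 counts. For both genes the lowest odour library, at 14.8 and 2.25 counts, was above the highest Control library, at 11.1 and 1.72. The genes were chosen for such a rise, and the share of all genes so separated on this scale was not counted. Ildr2 averaged 0.271, 0.227, 0.156 and 0.228 counts in the odour groups and 0.103 in Control, with O+C 3 at 0.121 next to the highest Control library at 0.117. Scgn averaged 2.32, 2.26, 1.89 and 1.84 counts in the odour groups and 1.57 in Control, so on this scale its order turned round and the acetophenone pair was the higher one. In O&C 3 Scgn, at 1.55 counts, lay within the Control range of 1.51 to 1.64.

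With libraries scaled by the mature neuron genes in the fit, Lrrc3b and Heg1 were again higher with the octanal pair, by 0.53 (edgeR adjusted p = 0.00163) and 0.31 (edgeR adjusted p = 0.0187). On that scale Ildr2 was −0.39 (adjusted p = 0.155) and Scgn −0.30 (adjusted p = 0.0460), both turned round from their values above. The scaling moves the median of all genes by −0.41 between the pairs, and by −0.22 in A+D, −0.48 in A&D, −0.69 with O+C and −0.84 with O&C over Control. The median of all genes over Control then stands at −0.20 in A+D, −0.48 in A&D, −0.70 with O+C and −0.88 with O&C, and these are the values to read the lists below against on that scale. For A+D over A&D the shift was 0.25, and for O+C over O&C 0.15. It also moves the share of higher genes among those called between the pairs to 1.70%, against 57.3% with TMM. Over Control that share was 62.7% in A+D against 91.9% with TMM, 1.98% in A&D against 98.0%, 1.13% in O+C against 71.0%, and 1.23% in O&C against 63.3%.

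**Figure D4:**
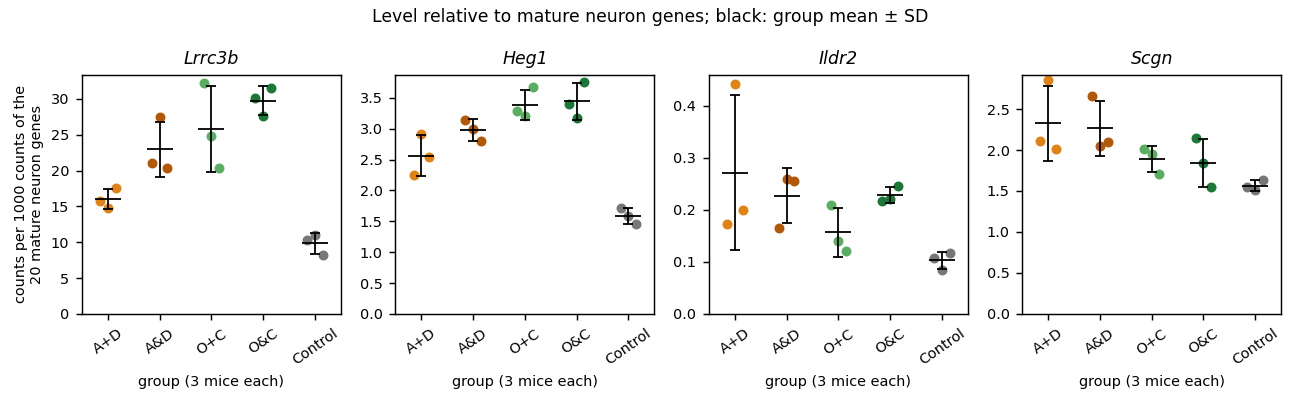
Counts of each gene per 1000 counts of 20 mature neuron genes (y axis, from 0) in each library (points), with the group mean and SD in black. Lrrc3b and Heg1 keep the order seen in CPM, with all odour libraries above Control, while Scgn is highest in A+D and A&D and O&C 3 falls among the Control points.

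A gene on the opposite strand overlaps each of the 4 genes in GENCODE M21, whose build differs from that of the files, so it is used for names only. The deposited counts of Lrrc3b and of Heg1 were whole numbers in 0 of 15 libraries, those of Ildr2 in 8 and those of Scgn in 15, to the 3 decimals given. The sum of each gene and its opposite-strand neighbour was whole in 15 of 15 libraries for all 4 pairs (within 0.0015). For Scgn this had to be so, since its own counts were whole and its neighbour had 0. For Lrrc3b the neighbour is B230110C06Rik, with 43.1 to 195 counts a library, or 1.1% of those of Lrrc3b over all libraries. For Heg1 it is Gm15657, with 4.68 to 23.6 counts, or 1.22%. For Ildr2 it is 5330438I03Rik, with 3 to 58 counts, or 26.5% of the Ildr2 counts, and for Scgn it is Gm11339, listed at 0 in every library. As counted, B230110C06Rik was higher with the octanal pair, by 1.03 ± 0.15 (edgeR adjusted p = 0.000333), and it was called over Control in A&D and in both octanal groups. Gm15657 was not called in any of these comparisons, and 5330438I03Rik was called over Control in O&C, at 3.07 ± 0.66 (edgeR adjusted p = 0.00486). These neighbours were named after the data were seen. How reads were divided between a gene and its neighbour is not given in the sources used here. A rise of B230110C06Rik or 5330438I03Rik thus cannot be told apart from that of the gene it overlaps. Counted as 1 gene with its neighbour, Ildr2 was 1.60 over Control in A+D, 1.77 in A&D, 1.46 with O+C and 2.23 with O&C on the log2 scale, and no call among the 4 genes changed. This way of counting was likewise chosen later. The library kit keeps strand, and whether the counting used it is not given in the sources used here.

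Profiles over the 15 libraries include Control, so the rise for which the 4 genes were chosen is part of any likeness given here. The genes whose profiles over the 15 libraries were closest to each of the 4 were found by the root mean square difference of their log2 CPM after centring each gene on its mean. For Lrrc3b they were Kcng1 at 0.249, Olfr1349 at 0.265, Heg1 at 0.278, Sema7a at 0.302 and Gm35167 at 0.305, where a flat profile would be at 0.911. Heg1 had Gm35167 at 0.195, Nptx2 at 0.208, Kirrel2 at 0.222, Rem2 at 0.223 and Ptchd1 at 0.227, against 0.719 for a flat profile, and Lrrc3b was its 15th nearest. Around Ildr2 were Nrn1l at 0.328, 9530034E10Rik at 0.332, Olfr787 at 0.344, 4930511M06Rik at 0.364 and S100a3 at 0.365, against 0.733. Scgn had Stmn4, 1700086L19Rik, Fam213b, Ccdc33 and Nxnl2 at 0.147 to 0.162, against 0.422. Kcng1, a silent potassium channel subunit, averaged 23.3 CPM in A+D, 37.1 in A&D, 65.8 with O+C, 73.2 with O&C and 10.1 in Control, and it was higher with the octanal pair by 1.24 ± 0.15 (edgeR adjusted p = 7.71e-05). The axon sorting molecules Sema7a and Kirrel2 also rose between the pairs, by 1.07 ± 0.14 (edgeR adjusted p = 0.000103) and 0.70 ± 0.13 (edgeR adjusted p = 0.00283). Of 13 genes linked to receptor neuron activity, these 3 among them, 1 rose in A+D, 4 in A&D, 8 with O+C and 8 with O&C, and 5 rose between the pairs. Of all genes 0.296% rose in A+D, 1.00% in A&D, 5.74% with O+C, 9.33% with O&C and 9.03% between the pairs. The list was chosen with earlier results of these data known and holds 3 of the near profiles above. It is therefore no independent support for that likeness. The A+D call, that of Kcng1, was lost with the Obp2a covariate (edgeR adjusted p = 0.0593), with the compared groups alone (edgeR adjusted p = 0.149) and in 4 of 15 fits that left out a library, and the A&D call of Sema7a in 6 of 15. The list medians over Control were 0.52, 0.52, 0.90 and 0.86, and with the mature neuron scaling 0.31, 0.02, 0.21 and −0.01. Of 20 immediate early genes, the fast transcriptional response to stimulation, 1 rose in A&D, 7 with O+C and 9 with O&C, and 11 rose between the pairs. Nr4a1, a nuclear receptor of that list, was 1.95 higher between the pairs (edgeR) and kept its direction with the mature neuron scaling. The median of the list was 0.39 between the pairs and turned to −0.02 with that scaling.

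The relatives and partners of the 4 genes were counted to set them beside the genes themselves. Of 30 leucine-rich repeat membrane genes related to Lrrc3b, 20 were tested: 4 rose in O+C, 5 rose and 1, Flrt2, fell in O&C, and 4 rose between the pairs. Of all genes 5.74% rose in O+C, 9.33% rose and 5.41% fell in O&C, and 9.03% rose between the pairs. In A+D and A&D edgeR called 0 of the 20, with 3 and 2 at an unadjusted p under 0.05, and DESeq2 called 0 in A+D and 1 in A&D. Lingo1, a neuronal receptor component, was higher by 0.95 ± 0.11 in O&C over Control (edgeR adjusted p = 1.73e-05) and by 0.52 ± 0.07 between the pairs (edgeR adjusted p = 0.000204). Lrrn1 and Lingo2, neuronal membrane proteins, rose by 0.70 ± 0.11 and 0.35 ± 0.08 between the pairs, but Lingo2 turned to −0.070 with the mature neuron scaling, under which Lingo1 no longer passed (0.11, edgeR adjusted p = 0.371). Lrrn2 was 0.84 ± 0.19 in O&C over Control (edgeR adjusted p = 0.00695) and 0.0027 with that scaling. The median of the list was 0.08, 0.12, 0.35 and 0.49 over Control in A+D, A&D, O+C and then O&C, against medians of all genes between −0.04 and 0.02. With the mature neuron scaling it was −0.14, −0.35, −0.33 and −0.34, against −0.20, −0.48, −0.70 and −0.88 for all genes.

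Of 20 genes of the Heg1 and cerebral cavernous malformation pathway, Map3k3 and Stk26 rose and Klf4 and Rdx fell in O&C, and 2 rose and 1 fell between the pairs. Of all genes 9.33% rose and 5.41% fell in O&C, and 9.03% rose and 6.74% fell between the pairs. The few calls of this list lie near those shares. In A+D edgeR called 0 of the 20 and DESeq2 0, with 1 at an unadjusted p under 0.05, and A&D gave the same counts. In O+C edgeR called 0, with 2 at an unadjusted p under 0.05, and DESeq2 called 1. Map3k3, the kinase that the Krit1 complex holds in check in endothelium, was 0.39 ± 0.13 (edgeR adjusted p = 0.0478) over Control in O&C and turned to −0.43 with the mature neuron scaling. Stk26, a kinase that binds Pdcd10 of that complex, was 0.63 ± 0.15 (edgeR adjusted p = 0.0110) and turned to −0.23. Klf4, a transcription factor downstream of Map3k3 in endothelium, was −0.63 ± 0.21 (edgeR adjusted p = 0.0482), and Rdx, the membrane linker radixin, −0.45 ± 0.13 (edgeR adjusted p = 0.0215). With each library left out in turn, these O&C calls were lost in 12 of 15 fits for Map3k3, 10 for Klf4, 4 for Rdx and 2 for Stk26. The Map3k3 call was also lost with no filter on low counts (edgeR adjusted p = 0.0644) and with the Obp2a covariate (edgeR adjusted p = 0.0551). The list median lay between −0.08 and 0.01 over Control, near the median of all genes, and between −0.82 and −0.26 with the mature neuron scaling, where that of all genes lay between −0.88 and −0.20.

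Heg1 is best known from endothelium, so endothelial markers are given beside it. Of 13 markers 3 fell with O+C and 1 with O&C, where 2.35% and 5.41% of all genes were called as lower. Emcn fell in both, though in O+C it was lost in 10 of 15 fits that left out a library and in O&C in 6, and in both with no filter on low counts (edgeR adjusted p = 0.0525 and 0.0576). The summed level of the markers was 43.4 ± 3.20 CPM in A+D, 44.6 ± 4.63 in A&D, 37.4 ± 3.28 with O+C, 43.1 ± 1.96 with O&C and 54.8 ± 5.38 in Control (SD, n = 3 each). Over the 15 libraries Pecam1 ranged from 5.68 to 8.13 CPM and Cdh5 from 0.0431 to 0.642 CPM. The mean endothelial sum was lower in each odour group than in Control. The part of endothelial cells in the Heg1 values was not tested.

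Of 19 angulin and tight junction genes related to Ildr2, 1 rose with O+C and 3 with O&C, and 3 rose and 1, Cldn11, fell between the pairs. Of all genes 5.74% rose with O+C and 9.33% with O&C, and 9.03% rose and 6.74% fell between the pairs. In A+D and A&D edgeR called 0 of the 19 and DESeq2 0, with 3 and 4 at an unadjusted p under 0.05. Flrt2 and Cldn11 are named for being the sole falling genes of their lists, after their values were seen. Lsr, the founding angulin, was 0.54 ± 0.14 over Control in O&C (edgeR adjusted p = 0.0173) and 0.40 ± 0.10 between the pairs (edgeR adjusted p = 0.0124), and turned to −0.30 and −0.0078 with the mature neuron scaling. The claudins Cldn3 and Cldn9 were 0.49 ± 0.11 (edgeR adjusted p = 0.00514) and 0.52 ± 0.13 (edgeR adjusted p = 0.0105) in O&C, and turned to −0.36 and −0.34. Leaving out each library in turn lost the O&C call in 2 of 15 fits for Lsr and in 2 for Cldn9. The single O+C call was that of Lsr (0.48, edgeR adjusted p = 0.0450), which was lost in 9 of 15 such fits, with RLE scaling (edgeR adjusted p = 0.0503) and with the Obp2a covariate (edgeR adjusted p = 0.0897). Sustentacular cells, the supporting epithelial cells of the tissue, had 11 markers of which 2 fell with O+C and 5 with O&C. Their Cyp2g1 ranged from 352 to 649 CPM. Of all genes 2.35% fell with O+C, 5.41% with O&C and 6.74% between the pairs, for comparison with this list and the 2 that follow. Other cell types also moved with the odorant pair that was high in Lrrc3b and Heg1. Of 14 immune markers 7 fell with O+C, 9 with O&C and 7 between the pairs, with a median of −0.61 between the pairs. Their summed level was 1268 ± 234 CPM in A+D, 1584 ± 589 in A&D, 890.1 ± 27.5 with O+C, 931 ± 184 with O&C and 1579.7 ± 383 in Control (SD, n = 3 each), and their Ptprc ranged from 4.34 to 10.3 CPM. Of 8 ciliated cell markers 2 fell with O+C, 4 with O&C and 4 between the pairs, with a median of −0.26 between the pairs. The part of these cells in the values of the 4 genes was not tested.

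Of 34 EF-hand calcium-binding genes related to Scgn, 31 were tested: 2 rose in A&D, 7 rose and 3 fell in O+C, 11 rose and 3 fell in O&C, and 3 rose and 2 fell between the pairs. Of all genes 1.00% rose in A&D, 5.74% rose and 2.35% fell in O+C, and 9.33% rose and 5.41% fell in O&C. Between the pairs 9.03% of all genes rose and 6.74% fell. In A+D edgeR called 0 of the 31, with 7 at an unadjusted p under 0.05, and DESeq2 called 1. Vsnl1, a neuronal calcium sensor, was 0.69 ± 0.15 in A+D (edgeR adjusted p = 0.0657), 0.96 ± 0.15 in A&D (edgeR adjusted p = 0.00127), 0.95 ± 0.15 in O+C (edgeR adjusted p = 0.000891) and 1.21 ± 0.15 in O&C (edgeR adjusted p = 5.54e-05). With the mature neuron scaling it kept its direction and passed in A&D but not in O+C or O&C. Calml4, a calmodulin-like gene, fell, at −0.80 ± 0.18 in O&C (edgeR adjusted p = 0.00553). The list median lay between −0.05 and 0.13 over Control, and between −0.75 and −0.08 with that scaling, where that of all genes lay between −0.88 and −0.20. Of 12 genes for vesicle and transport proteins reported to bind Scgn, or their near relatives, 2 rose and 1 fell in O+C, and 2 rose and 1 fell in O&C. A list of markers of neuroendocrine cells, in which Scgn is known, had 7 tested genes, of which 2 rose in A&D, 4 with O+C and 4 with O&C. Chga, Chgb, Syp and Scg3 had the lowest p-values among its called genes. Whether neuroendocrine cells or sensory neurons gave these counts was not tested. The median of this list was 0.16, 0.31, 0.62 and 0.62 over Control in the order of the odour groups, beside 0.20, 0.44, 0.78 and 0.91 for the mature neuron genes. With the mature neuron scaling it was −0.06, −0.17, −0.08 and −0.24, against −0.20, −0.48, −0.70 and −0.88 for all genes. The summed level of its 7 genes was 661 ± 63.2 CPM in A+D, 739.9 ± 66.0 in A&D, 893 ± 126 with O+C, 940.3 ± 109 with O&C and 519 ± 21.3 in Control (SD, n = 3 each). The part of neuroendocrine cells in the Scgn values was not tested.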

How the data were processed

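The data are 15 libraries of RNA bound to phospho-S6 ribosomes, 3 in each of 5 groups, which were assigned from the sample titles. The authors deposited expected counts per Ensembl gene with no library scaling; they used STAR 2.7.10b, Salmon 1.10.1 and R 4.4.2 with GRCm39, per the submitters' processing notes. The annotation and the strand setting are not given in the sources used here. Between 86.0% and 87.9% of the values of a library were whole.

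The expected counts were rounded, filtered with filterByExpr (minimum count 10) and scaled by TMM in edgeR 4.0.16 (R 4.3.3). One robust quasi-likelihood model with a mean per group was fitted over all 15 libraries (biological coefficient of variation 0.183). The tests were two-sided, with Benjamini-Hochberg adjustment over all 19229 genes and a threshold of 0.05. The pipeline was tested on simulated counts. Symbols were found for 52029 of 57010 identifiers. The members and the 19 gene lists were chosen with earlier results of these data known. The genes that could be named are the 4 members, the 5 closest profiles to each, and up to 4 called genes with the lowest p-value of each list; the text gives those of the lists nearest to the members in part, and 1 is not reported here. The alternatives were RLE scaling, DESeq2 1.42.0, no filter, the compared groups alone, a replicate block, mature neuron scaling, an Obp2a covariate and leaving out each library. The labels call the libraries of a group biological replicates, taken here as 1 mouse each.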

Additional observations from a re-analysis of the deposited data

How the results depend on the processing

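RLE scaling, the Obp2a covariate, the replicate block and counting a gene with its opposite-strand neighbour (an alternative chosen after seeing the data) changed no direction and no call of Lrrc3b, Heg1, Ildr2 or Scgn, and the pair difference of Lrrc3b and Heg1 passed under every alternative. The replicate numbers do not pair the libraries: the residuals of same-numbered libraries had a mean correlation of −0.034 (−0.331 to 0.144, with 3 of 30 pairs over 0.1). With the replicate block the pair difference was 0.95 for Lrrc3b (edgeR adjusted p = 0.00278) and 0.73 for Heg1 (edgeR adjusted p = 0.000675), and the interaction called 1 gene instead of 2. Calls of other named genes lost under the block were Kcng1 in A+D (edgeR adjusted p = 0.0532), Sema7a in A&D (0.0852), Lsr in O+C (0.0739), Calml4 in O+C (0.0593) and Klf4 in O&C (0.0793), besides Gnal in A&D and Dusp1 in O+C.

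Without each library in turn, the pair difference ran from 0.82 to 1.05 for Lrrc3b (largest edgeR adjusted p = 0.00729), from 0.65 to 0.79 for Heg1 (largest edgeR adjusted p = 0.000674), from −0.10 to 0.28 for Ildr2 (below 0 without A+D 1 or O+C 1) and stayed positive for Scgn. A+D over A&D ran from −0.44 to 0.18 for Ildr2 (above 0 without A+D 1, A+D 3, A&D 2 or A&D 3), O+C over O&C from −0.22 to 0.014 for Scgn (above 0 without O+C 3), and the interaction of Scgn from −0.055 (without A&D 1) to 0.26. Over Control, Ildr2 in A+D ran from 1.18 (without A+D 2) to 1.79, Scgn in A&D from 0.82 to 1.13 (lowest without A&D 1), and the mature neuron median in O&C from 0.80 to 1.04. The number of genes called ran from 44 to 583 for A+D over Control (highest without A+D 1), from 113 (without Control 1) to 443 (without A+D 2) for A&D, from 545 (without O+C 1) to 2542 (without A+D 2) for O+C and from 1233 (without O&C 3) to 4236 for O&C. It ran from 1663 (without O&C 3) to 4322 between the pairs, from 10 (without A+D 3) to 28 for A+D over A&D, from 0 to 2 (without O&C 1) for O+C over O&C and from 1 (without A&D 2 or O&C 1) to 4 (without O&C 2) for the interaction. Leaving out any 1 Control library also lowered the O+C and O&C counts by more than 1.5 times, to 752 to 842 and 1742 to 1861. Other counts that moved that far were A&D over Control without Control 2 (131), A&D 1 (122) or A&D 2 (129), O+C over Control without O+C 3 (949), A+D over A&D without A+D 1 (12) or without either of A&D 1 and A&D 2 (11 each), and the pairs without A&D 1 (1801) or O+C 1 (1866).

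Scaling by the mature neuron genes lowered the members' values over Control and left them positive: Lrrc3b to 1.22 in A&D, 1.39 with O+C and 1.60 with O&C; Heg1 to 0.69, 0.91, 1.09 and 1.11 in A+D, A&D, O+C and then O&C; Ildr2 to 1.14, 0.61 and 1.15 in A&D and both octanal groups; Scgn to 0.57, 0.53, 0.27 and 0.23. It set the mature neuron median, by construction, to −0.030, −0.037, 0.082 and 0.045 over Control and 0.048 between the pairs. It turned round the pair difference of Ildr2 (−0.39) and Scgn (−0.30), A+D over A&D of Ildr2 (0.25) and Scgn (0.036), O+C over O&C of Scgn (0.036) and its interaction (−0.000479). Others turned were Dusp1 (−0.24 in O+C, −0.015 in O&C), Lrrn1 (−0.036 in O+C), Lingo2 (−0.15, −0.24 and, between the pairs, −0.070), Lsr (−0.22, −0.30, −0.0078), Map3k3 (−0.43), Stk26 (−0.23, −0.051 between the pairs), Cldn3 (−0.36), Cldn9 (−0.34) and Gnal (−0.029 between the pairs).

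The counts of called genes moved with the settings; the cause was not tested. With the mature neuron scaling they were 6606 in A&D, 11893 with O+C and 14350 with O&C over Control, 10 for A+D over A&D, 10023 between the pairs and 0 for the interaction, where edgeR with TMM had 517 genes at an unadjusted p under 0.05. With no filter they were 885 in A+D and 610 in A&D over Control, 208 for A+D over A&D, 204 for O+C over O&C and 204 for the interaction, and Lrrc3b in A+D over A&D passed at −0.77. With the compared groups alone they were 361 in A&D, 2512 with O+C and 4561 with O&C over Control and 10 for A+D over A&D. With DESeq2 they were 235 in A+D, 439 in A&D, 43 for A+D over A&D, 9 for O+C over O&C and 8 for the interaction. At 28.0 to 138 counts a library, Ildr2 has the lowest counts of the 4 genes, so depth limits its values most among them.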
